A study of Mus musculus with 16 samples.

Results

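The 10 transcription factors described here, Mafa, Pdx1, Nkx6-1, Nkx2-2, Neurod1, Pax6, Isl1, Mnx1, Insm1 and Foxa2, are genes known for setting or keeping β cell identity. They were taken by gene symbol from a matrix of 25105 genes, and each had 1 row. Their RPKM values (reads per kilobase of transcript, scaled to library size) were examined in 16 RNA-seq libraries of dispersed mouse islet cells. The cells of all 16 libraries came from Grp78 flox/flox mice, 12 to 60 weeks old, and were kept in 15 mM glucose for 72 hours after adenovirus at a multiplicity of infection of 20. The virus carried LacZ (Ad-LacZ) or Cre recombinase (Ad-Cre), and each virus was combined with vehicle (DMSO) or with a JNK inhibitor (JNK-IN-8). Groups are named by virus, with "+ JNK inhibitor" added where it was given instead of vehicle. Each of the 4 groups has 4 libraries, 1 from each of the islet preparations F1, M1, M2 and F2, named for female or male and a number. The sample labels give 2 animal numbers for a preparation, whereas the study's methods count 4 mice in all. Adenovirus brings Cre to any cell type of the culture and not to β cells alone.

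In the adult islet these factors act together on the genes of insulin synthesis, glucose sensing and secretion. Mafa, Pdx1, Nkx6-1 and Mnx1 are, among mature mouse islet cells, mostly β cell factors, although Pdx1 is also used by δ cells. Neurod1, Nkx2-2, Pax6, Isl1 and Insm1 are shared by several endocrine cell types, and Foxa2 is a forkhead factor of endoderm that acts earlier than the others in development. Mafa is a late maturation factor that binds the insulin promoter, and Pdx1 is required for pancreas formation as well as for the mature β cell.

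Grp78 is listed as Hspa5. Its mean was 438 ± 49.0 RPKM (SD, n = 4) under the label Ad-LacZ and 1264 ± 231 RPKM (SD, n = 4) under the label Ad-Cre. The log2 fold change was 1.51 (limma, adjusted p = 0.00224). With inhibitor the log2 fold change was 1.92 (limma, adjusted p = 0.000946). The targeted gene was thus higher in the libraries labelled Ad-Cre, against the label of a knockdown, and a single value for the whole gene cannot show whether the floxed part was lost. Every direction below is therefore that of the libraries as labelled. Depth, estimated from the step of 1 read in the low values, was 7.7 to 25.4 M reads. In F1 of Ad-Cre, F1 of Ad-Cre + JNK inhibitor and M1 of Ad-LacZ it was 14.2, 14.6 and 15.7 M reads. These estimates and the lowest one lie below the range of raw counts that the study's methods give for each sample. The library of 7.7 M reads, preparation F2 of Ad-Cre + JNK inhibitor, is also the only one whose column name carries another prefix and lane; what these stand for is not given. β cell markers dominated the cultures: the summed RPKM of Ins1, Ins2, Iapp, Slc2a2, G6pc2 and Ucn3 was 33170 to 84007 per library, and that of 6 α cell markers 10984 to 27233.

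The first question was how strongly each factor is expressed in the Ad-LacZ libraries. RPKM is per length, so that levels of different genes can be ordered. Mafa was highest, at 508, 444, 344 and 285 RPKM in F1, M1, M2 and F2, with a mean of 395 ± 99.6 RPKM (SD, n = 4). Its range did not overlap that of any other factor. Neurod1 (115 ± 37.5 RPKM), Nkx6-1 (99.7 ± 21.7 RPKM), Insm1 (92.9 ± 10.9 RPKM) and Pdx1 (89.1 ± 14.7 RPKM; all SD, n = 4) followed. Their neighbouring ranges overlapped, so the order among these factors is within the spread between preparations. Nkx2-2 had 48.7 ± 2.15 RPKM and Foxa2 34.1 ± 1.33 RPKM (SD, n = 4), and both were separated from their neighbours. Isl1 (27.9 ± 2.65 RPKM) and Pax6 (26.9 ± 1.84 RPKM) overlapped, and Mnx1 was lowest at 12.2 ± 2.86 RPKM (SD, n = 4). In the libraries labelled Ad-Cre, Mafa was still first by its mean, at 145 ± 91.0 RPKM (SD, n = 4), but its range now overlapped that of Insm1, the next factor. Neurod1 stood at rank 5 there, at 44.7 ± 7.68 RPKM (SD, n = 4), after rank 2 in Ad-LacZ. Its range in Ad-Cre overlapped those of Insm1, Nkx6-1 and Pdx1, which ranked above it, so both ranks are orders of means only.

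**Figure D1:**
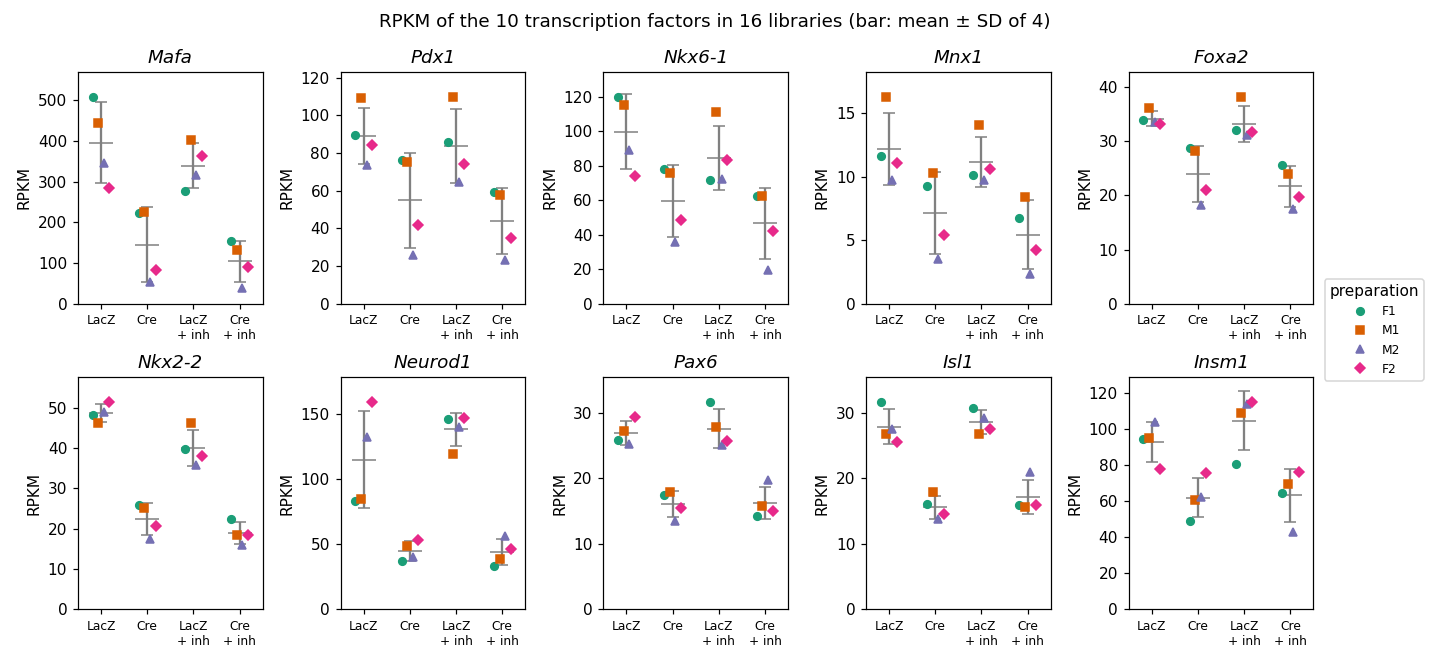
RPKM (y axis, linear from 0) of the 10 transcription factors in the 4 groups (x axis; inh, JNK inhibitor), with 1 symbol per preparation and the mean ± SD of 4 libraries as a bar. In all 10 panels the libraries labelled Ad-Cre have the lower mean. For Mafa, Pdx1, Nkx6-1, Mnx1, Foxa2 and Nkx2-2 preparation M2 is the lowest in both Ad-Cre groups.

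Promoter windows from RefSeq (build GRCm38.p6), 250 bases before to 50 after an annotated start, were matched by symbol for 8 of the 10 factors. Any window under these symbols on a chromosome that holds none of the 10 genes was left out. The set of all promoter windows used below had no such exclusion. There were 11 windows of the factors in all. The 4 printed are those of Neurod1, Nkx2-2 and Isl1, which fell in both comparisons of Ad-Cre with Ad-LacZ given below, and of Pdx1, which passed in neither without the preparation as a block. These 4 have a single window each, and Pax6, which also fell in both, has 2 windows and is not shown. The 250 upstream bases are shown 5′ to 3′ on the strand of the gene. They lie at chr2:79456637-79456886 (minus strand), chr2:147186403-147186652 (minus strand), chr13:116309689-116309938 (minus strand) and chr5:147269847-147270096 (plus strand), each upstream of an annotated start. That of Nkx2-2 is an internal start, since the gene spans chr2:147176485-147195434, and its bases lie within the gene. Capitals mark a match, on either strand, to 1 of 6 motifs: CANNTG (E-box), TAAT (homeodomain core), TGANTCA (AP-1), TGACG (cAMP response element core), CCACG (core of ERSE and XBP1 sites) and TGTTTAC (forkhead).
Neurod1: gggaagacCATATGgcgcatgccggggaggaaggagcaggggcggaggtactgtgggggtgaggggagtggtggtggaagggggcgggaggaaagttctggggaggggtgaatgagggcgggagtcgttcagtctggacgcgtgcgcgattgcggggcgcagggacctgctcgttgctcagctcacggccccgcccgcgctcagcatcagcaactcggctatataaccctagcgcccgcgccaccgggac
Nkx2-2: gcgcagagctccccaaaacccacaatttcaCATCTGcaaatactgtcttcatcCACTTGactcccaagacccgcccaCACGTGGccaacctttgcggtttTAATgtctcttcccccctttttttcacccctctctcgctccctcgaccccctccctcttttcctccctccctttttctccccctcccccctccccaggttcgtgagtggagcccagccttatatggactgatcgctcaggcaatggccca
Isl1: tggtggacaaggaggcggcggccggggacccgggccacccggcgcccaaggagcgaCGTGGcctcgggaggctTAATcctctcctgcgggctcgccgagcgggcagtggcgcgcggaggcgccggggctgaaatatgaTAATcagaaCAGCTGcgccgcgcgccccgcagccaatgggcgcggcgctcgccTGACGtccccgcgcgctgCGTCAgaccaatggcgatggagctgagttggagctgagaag
Pdx1: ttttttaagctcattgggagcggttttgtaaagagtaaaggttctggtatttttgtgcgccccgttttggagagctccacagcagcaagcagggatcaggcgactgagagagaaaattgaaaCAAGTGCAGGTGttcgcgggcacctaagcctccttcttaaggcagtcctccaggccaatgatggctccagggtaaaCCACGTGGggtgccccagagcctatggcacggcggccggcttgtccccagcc

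In these upstream bases Neurod1 held 1 E-box and no other of the 6 motifs. Nkx2-2 held 3 E-boxes, 1 TAAT and 1 CCACG, Isl1 held 1 E-box, 2 TAAT, 2 TGACG and 1 CCACG, and Pdx1 held 3 E-boxes and 2 CCACG. In Nkx2-2 and Pdx1 the CCACG matches overlap an E-box of the letters CACGTG. Over the whole 300-base windows, counted by window, CCACG was in 9 of the 11 (81.8%), against 32.8% of all 32851 promoter windows, and each of the 8 factors had it in at least 1 window. The median GC content was 59.7% in the 11 windows and 52.7% in all windows, and the part of base composition was not tested. An E-box was in 7 of the 11 windows (63.6%, against 72.3% of all windows), TAAT in 7 (63.6%, against 58.0%) and TGACG in 5 (45.5%, against 20.8%). AP-1 and forkhead letters were in none of the 11 (7.81% and 3.65% of all windows). A match is a description of the letters and not a site of binding.

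The second question was what differed between Ad-Cre and Ad-LacZ without inhibitor. All 10 factors had a lower mean in the libraries labelled Ad-Cre, from 36.8% of the Ad-LacZ mean for Mafa to 70.1% for Foxa2. Of the 10, 5 fell at an adjusted p under 0.05: Neurod1, Nkx2-2, Isl1, Pax6 and Insm1 (limma on log2(TMM-scaled RPKM + 1), Benjamini-Hochberg over 11590 genes). Of all 11590 genes tested, 9.58% were called lower. With the preparation as a block, all 10 factors fell, against 18.7% of all genes. In bulk samples, fewer cells of a type and less RNA per cell cannot be told apart. The median log2 fold change of the 10 factors was -0.79, and that of all genes tested was -0.01.

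Neurod1, a basic helix-loop-helix activator of insulin transcription, had the largest called change. Ad-LacZ values were 82.9, 84.7, 133 and 159 RPKM in F1, M1, M2 and F2, and Ad-Cre values 36.6, 48.8, 40.2 and 53.4 RPKM in the same order. The highest Ad-Cre library lay below the lowest Ad-LacZ library. The log2 fold change was -1.30 (SE 0.22, limma adjusted p = 0.00705).

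Nkx2-2, a homeodomain factor that keeps β cells from taking on other endocrine programs, varied little among Ad-LacZ libraries, at 48.2, 46.3, 48.9 and 51.5 RPKM in F1, M1, M2 and F2. In Ad-Cre it had 25.8, 25.2, 17.5 and 20.6 RPKM in the same order. The groups did not overlap, and the log2 fold change was -1.11 (SE 0.18, limma adjusted p = 0.00686).

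The other called factors changed less. Isl1, a LIM homeodomain factor, went from 27.9 ± 2.65 to 15.5 ± 1.81 RPKM (SD, n = 4; log2 fold change -0.81, SE 0.16, limma adjusted p = 0.0122). Pax6, a paired-domain factor of all islet endocrine cells, went from 26.9 ± 1.84 to 16.1 ± 1.99 RPKM (SD, n = 4; log2 fold change -0.72, SE 0.16, limma adjusted p = 0.0201). Insm1, a zinc finger factor of endocrine differentiation, went from 92.9 ± 10.9 to 62.0 ± 11.0 RPKM (SD, n = 4; log2 fold change -0.59, SE 0.14, limma adjusted p = 0.0221). None of these 3 overlapped between groups, although the F2 library of Ad-Cre, at 76.0 RPKM for Insm1, was close to the F2 library of Ad-LacZ at 77.9 RPKM. Without preparation F1, M1, M2 or F2 in turn, Insm1 no longer passed, with limma adjusted p from 0.0543 to 0.112, and without F2 only Neurod1 of the 10 was still called.

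Mafa showed the lowest log2 fold change of the 10, -1.67 (SE 0.52), but also the widest spread, and it missed the threshold at an adjusted p of 0.0569 (limma). Its Ad-Cre values were 222, 225, 52.7 and 81.8 RPKM in F1, M1, M2 and F2. Each Ad-Cre library lay below each Ad-LacZ library (exact two-sided permutation p = 0.0286, the smallest that 4 libraries against 4 can give). The preparations differed widely among themselves: M2 was at 52.7 and M1 at 225 RPKM within the same group. With the block the adjusted p of Mafa was 0.00387 (limma), and it was 0.0383 on RPKM as deposited, 0.0171 after quantile normalization and 0.0427 with all 16 libraries in one fit (limma in each case). Over all alternatives the adjusted p of Mafa ranged from 0.00387 to 0.209.

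Pdx1, Nkx6-1, Mnx1 and Foxa2 had lower means that did not pass without the block. Pdx1 had 89.4, 109, 73.9 and 84.3 RPKM in F1, M1, M2 and F2 of Ad-LacZ, and 76.5, 75.2, 26.1 and 41.8 RPKM in the same preparations of Ad-Cre. The groups overlapped, since F1 and M1 of Ad-Cre lay above M2 of Ad-LacZ. The log2 fold change of Pdx1 was -0.81 with a 95% interval from -1.68 to 0.06 (limma adjusted p = 0.178). Nkx6-1, which represses non-β programs, had a log2 fold change of -0.78 (limma adjusted p = 0.130). Mnx1, a homeodomain factor of β cells, had -0.76 (limma adjusted p = 0.154), and Foxa2 -0.52 (limma adjusted p = 0.113). With the block, the adjusted p was 0.0184 for Pdx1, 0.00589 for Nkx6-1, 0.00907 for Mnx1 and 0.0180 for Foxa2 (limma). In all, 6 of the 10 factors did not overlap between the groups, namely the 5 called ones and Mafa, whereas 14.2% of all genes tested were lower without overlap.

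Within a preparation, Ad-Cre minus Ad-LacZ was negative in 40 of 40 differences (10 factors in 4 preparations), and 10 of 10 factors were lower in all 4 preparations, against 28.3% of all genes tested. The size differed by preparation. The log2 difference of Mafa was -1.14, -0.95, -2.68 and -1.89 in F1, M1, M2 and F2. That of Pdx1 was -0.17, -0.51, -1.46 and -1.09 in the same order. For 8 of the 10 factors, both M2 and F2 showed a larger decrease than both F1 and M1. Isl1 and Insm1 were the exceptions, and Insm1 showed its smallest difference, -0.13, in F2. In the median over the 10 factors the difference was -0.69, -0.58, -1.26 and -0.98.

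Some markers of other cell types were higher in M2 and F2 of Ad-Cre than in F1 and M1. The summed RPKM of 7 fibroblast or stellate markers in Ad-Cre was 21.8, 32.0, 683 and 179 in F1, M1, M2 and F2. In Ad-LacZ it was 23.6, 33.0, 108 and 55.1 in the same order. The sum of 7 macrophage markers in Ad-Cre was 65.1, 84.3, 195 and 166, against 66.2 to 74.9 in Ad-LacZ. The summed β cell markers of Ad-Cre were 84007, 70644, 33359 and 47149, and those of Ad-LacZ 84006, 78085, 51398 and 59929. In Ad-LacZ, too, M2 and F2 had the highest fibroblast and the lowest β cell sums. In Ad-Cre the endothelial sums (42.7, 42.0, 115 and 47.0) and duct sums (115, 104, 331 and 221) were also higher in M2 and F2. Those of α cells (21540, 12800, 13358 and 11804), δ cells (2552, 2046, 2482 and 1135) and PP (pancreatic polypeptide) cells (6541, 4377, 5023 and 3172) were not. Every marker of the fibroblast and macrophage lists was above 0 in at least 1 library of each group. Their part in the result was not tested. With preparation M2 left out, the median log2 fold change of the 10 factors was -0.62, and without F2 it was -0.77.

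**Figure D2:**
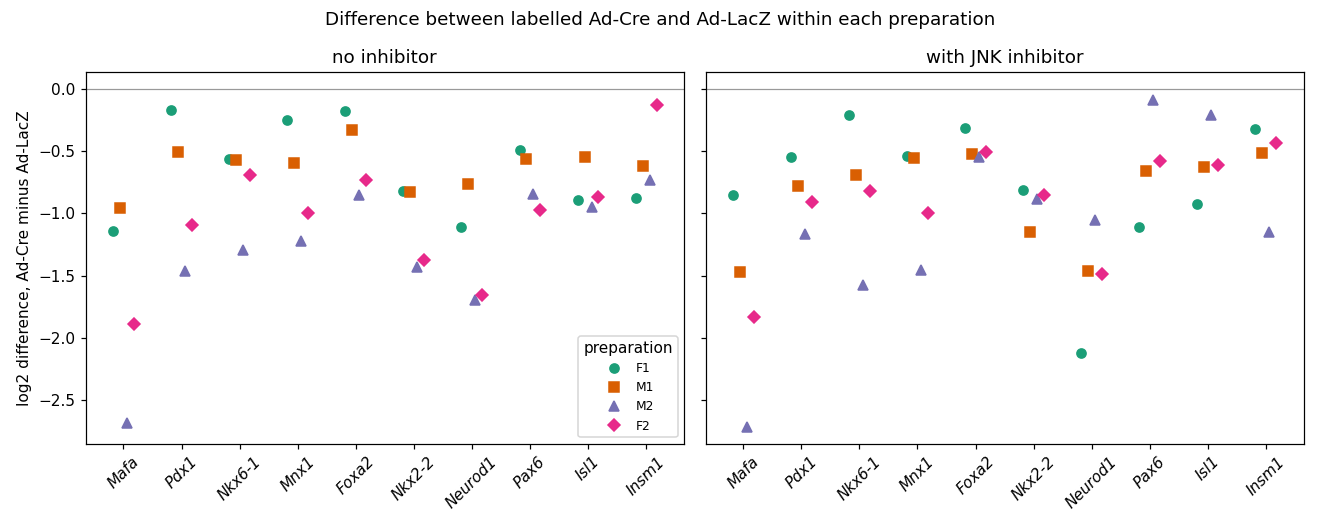
Difference in log2(TMM-scaled RPKM + 1) between the libraries labelled Ad-Cre and Ad-LacZ of the same preparation (y axis) for each factor (x axis), without inhibitor (left) and with inhibitor (right). All 80 points lie below 0, and Mafa in M2 has the lowest value on both sides, -2.68 and -2.71.

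The third question was whether the same difference was present with JNK inhibitor. All 10 factors again had a lower mean in Ad-Cre, and 5 of the 10 fell: Mafa, Neurod1, Nkx2-2, Isl1 and Pax6 (limma, 11598 genes tested, of which 10.5% were called lower). With the block all 10 fell, against 12.1% of all genes. Mafa had 278, 402, 315 and 361 RPKM in F1, M1, M2 and F2 of Ad-LacZ + JNK inhibitor, and 155, 132, 39.4 and 90.6 RPKM in the same preparations of Ad-Cre + JNK inhibitor. The groups stood apart, and the log2 fold change was -1.71 (SE 0.40, limma adjusted p = 0.0175). Neurod1 had 146, 119, 140 and 147 RPKM in Ad-LacZ + JNK inhibitor and 33.3, 38.8, 56.2 and 46.4 RPKM in Ad-Cre + JNK inhibitor, in the order F1, M1, M2, F2. Each Ad-Cre value of Neurod1 was well below each Ad-LacZ value, with a log2 fold change of -1.53 (SE 0.18, limma adjusted p = 0.000874).

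Nkx2-2 had a log2 fold change of -0.92 with inhibitor (limma adjusted p = 0.00925), Isl1 of -0.59 (limma adjusted p = 0.0263) and Pax6 of -0.61 (limma adjusted p = 0.0402). For Isl1 and Pax6, preparation M2 gave the smallest differences, -0.21 and -0.09, as it did for Neurod1 at -1.05, whereas 6 of the 10 factors had their largest decrease in M2. Isl1 in the M2 library of Ad-Cre + JNK inhibitor was 21.0 RPKM, and 15.6 to 16.0 RPKM in the other 3. In that library the summed α cell markers were 27233 RPKM, against 13268 to 23286 in the others of the group, and the summed δ cell markers were 6834 RPKM, against 2467 to 3844. Their part in the result was not tested. Insm1 missed the threshold at -0.60 (limma adjusted p = 0.0555), although its groups did not overlap, and it was called at 0.0374 with TMM factors taken from genes above the filter (limma). Pdx1, Nkx6-1, Mnx1 and Foxa2 had log2 fold changes of -0.85, -0.82, -0.89 and -0.48, with limma adjusted p from 0.0831 to 0.145 without the block.

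As without inhibitor, 40 of 40 differences within preparations were negative, and 10 of 10 factors were lower in all 4 preparations, against 24.3% of all genes tested. Groups were without overlap for 6 of the 10 factors, Mafa, Neurod1, Nkx2-2, Isl1, Pax6 and Insm1, against 14.5% of all genes. The fibroblast or stellate marker sum was here lower in Ad-Cre + JNK inhibitor, 26.3 to 148 RPKM, than in the same preparations of Ad-LacZ + JNK inhibitor, 43.8 to 512 RPKM. All 6 α cell, 4 δ cell, 2 PP cell and 6 endothelial markers tested were higher in Ad-Cre + JNK inhibitor. Their median log2 fold changes were 0.54, 0.74, 0.90 and 0.37, against -0.03 for all genes tested. Macrophage markers were divided, 3 lower and 3 higher, the 2 duct markers tested were lower, and the 1 acinar marker was higher. The part of these lists in the result was not tested. Without the F2 library of Ad-Cre + JNK inhibitor, the one with the other prefix and lane, 2 of the 10 were called, Neurod1 and Nkx2-2, and the median log2 fold change of the 10 factors was -0.75 rather than -0.84. Without preparation M1, and also without F2, Neurod1 alone was called.

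**Figure D3:**
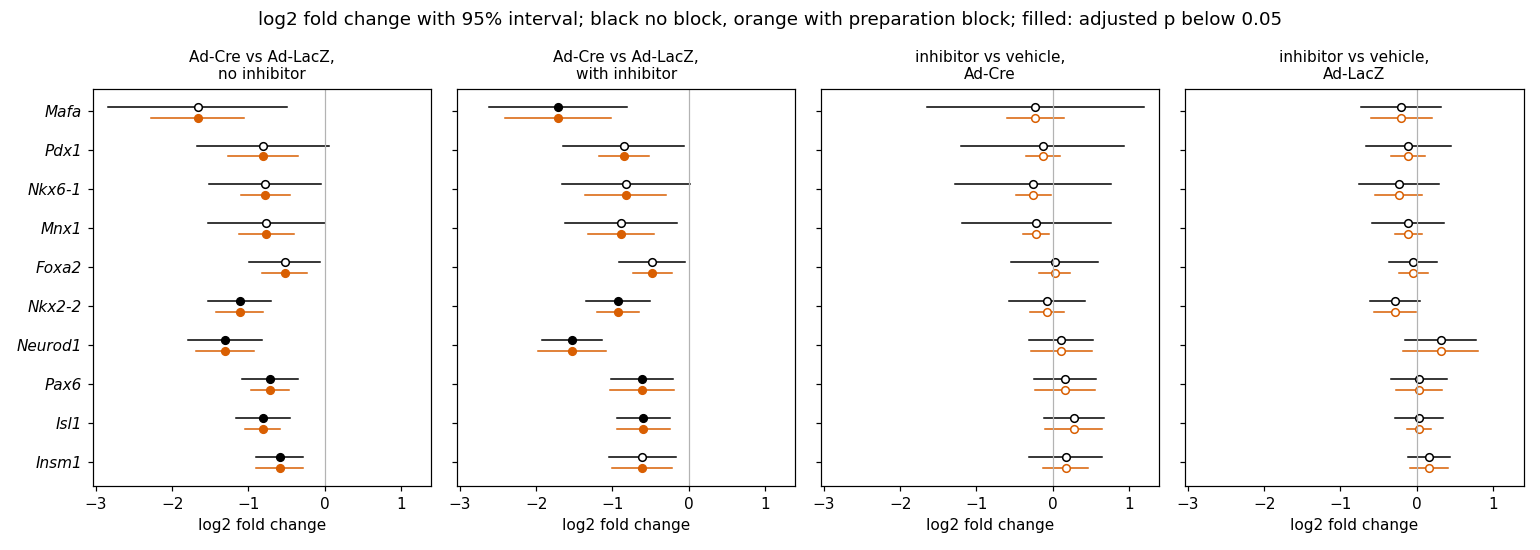
log2 fold change (x axis) with its 95% interval for the 10 factors (y axis) in 4 comparisons, by limma without a block (black) and with the preparation as a block (orange); filled symbols have an adjusted p under 0.05. In both comparisons of Ad-Cre with Ad-LacZ, 5 black and 10 orange symbols are filled, and in the comparisons of inhibitor with vehicle none is.

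The fourth question was what the JNK inhibitor changed in cells with the same virus. These comparisons share their libraries with those above, so the values stand side by side and are not set against each other. In the libraries labelled Ad-Cre, 0 of the 10 factors passed with or without the block, and 0 had an unadjusted p under 0.05 without the block and 2 with it (limma). Among the 11503 genes tested, 924 had such an unadjusted p without the block and 3049 with it. Of 11503 genes tested, 0.0174% were called without the block and 6.76% with it, in either direction. The inhibitor left Mafa at 71.7% of its Ad-Cre mean and Isl1 at 110%. The log2 fold change of Mafa was -0.23, with a 95% interval from -1.65 to 1.20 without the block and from -0.60 to 0.15 with it. Without the block the intervals were narrower for Neurod1 (0.11, from -0.31 to 0.53), Nkx2-2 (-0.07, from -0.58 to 0.43) and Isl1 (0.28, from -0.11 to 0.67). With the block they were -0.29 to 0.51 for Neurod1, -0.30 to 0.15 for Nkx2-2 and -0.10 to 0.65 for Isl1. Mnx1 and Nkx6-1 were lower with inhibitor in all 4 preparations, with log2 fold changes of -0.22 and -0.25 and adjusted p of 0.122 and 0.154 with the block (limma). Their 95% intervals with the block were -0.39 to -0.05 and -0.48 to -0.03. They are the 2 factors counted above at an unadjusted p under 0.05 with the block, beside 3049 of all 11503 genes. The share of all genes lower in all 4 preparations was not computed for this comparison. No factor was without overlap between the groups, against 5.82% of all genes tested.

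In the libraries labelled Ad-LacZ, 0 of the 10 factors passed the inhibitor comparison with or without the block, and 0 had an unadjusted p under 0.05 without the block and 1 with it (limma). Among the 11657 genes tested, 708 had such an unadjusted p without the block and 1503 with it. Of 11657 genes tested, 0.197% were called without the block and 0.335% with it. Nkx2-2 had the lowest log2 fold change, -0.29 (95% interval from -0.62 to 0.05), and Neurod1 the highest, 0.31 (95% interval from -0.15 to 0.78). With the block the intervals were -0.56 to -0.01 for Nkx2-2 and -0.17 to 0.80 for Neurod1. Neurod1 differed among preparations: its log2 difference with inhibitor was 0.94, 0.49, 0.08 and -0.24 in F1, M1, M2 and F2. Again no factor was without overlap, against 4.51% of all genes tested.

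The difference between the Ad-Cre effects with and without inhibitor was tested as an interaction over all 16 libraries. It was called for 0 of 12274 genes, 0% of those tested, with or without the block, while 396 genes had an unadjusted p under 0.05 without the block and 1426 with it, and over the alternatives 0 to 2 genes were called (limma), none of them 1 of the 10 factors. For the 10 factors the interaction lay between -0.21 for Neurod1 and 0.23 for Isl1 on the log2 scale. Without the block the 95% interval was from -0.81 to 0.39 for Neurod1 and from -0.24 to 0.71 for Isl1, and for Mafa it was from -1.60 to 1.53. With the block the intervals were -0.80 to 0.38, -0.15 to 0.61 and -1.01 to 0.94 in the same order. At these intervals neither fit called a difference between the Ad-Cre effects for the 10 factors, which does not show that the effects were alike.

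The levels of the 10 factors varied together to different degrees over the 16 libraries. These points share preparations and treatment groups, so the correlations are descriptions. Mafa, Pdx1, Nkx6-1, Mnx1 and Foxa2, grouped after their values were seen, had Pearson r from 0.93 to 0.99 in their 10 pairs, whereas all 45 pairs ranged from 0.44 to 0.99. Pax6 and Isl1 had r of 0.96. Neurod1 had its lowest r, 0.44, with Nkx6-1, and its highest among the factors, 0.86, with Pax6. Insm1 had no r above 0.78 with another factor.

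**Figure D4:**
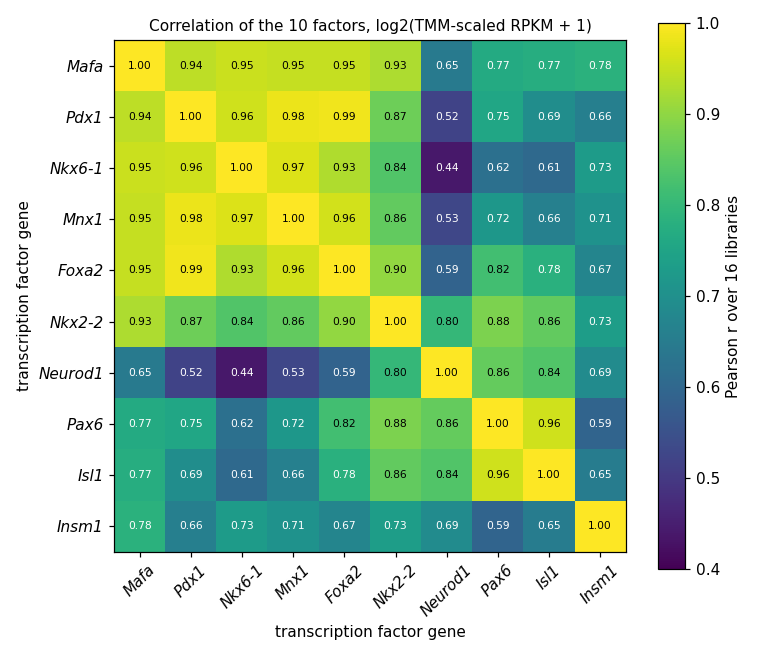
Pearson r (colour and number) between each pair of the 10 transcription factors (both axes) over 16 libraries on log2(TMM-scaled RPKM + 1). Mafa, Pdx1, Nkx6-1, Mnx1 and Foxa2 have 0.93 to 0.99 with one another, and Nkx2-2 has 0.93 with Mafa and 0.90 with Foxa2. The lowest value is 0.44, between Neurod1 and Nkx6-1.

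Among 12274 genes, those most like each factor by Pearson r over the 16 libraries were sometimes other factors of the set. Mnx1 was most like Pdx1 (r = 0.98), Foxa2 was most like Pdx1 (r = 0.99), and Isl1 had Pax6 in second place (r = 0.96). Mafa was most like Ankrd33b, Lhfpl4 and Amigo1 (r from 0.97 to 0.98). Pdx1 had Mapre2 in first place, Nkx6-1 had Slc25a12, Adra2a and Nipal3, and Nkx2-2 had Glra1, Atp2b2 and Kcnn3. Neurod1 was most like St18, itself a zinc finger factor of islet cells (r = 0.98), followed by Chac2 and Daam1. Pax6 had Rims2, Slitrk6 and Tceal1, Foxa2 had Gnao1 and Hadh after Pdx1, Mnx1 had Ddx31 and Hs3st6 after Pdx1, and Isl1 had Kctd12b and Dock11 beside Pax6. For Insm1 the highest r was lower, 0.88 with Ano8 and with B3gnt3, followed by Hnrnpl at 0.87.

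Other transcription factors of the islet lineages, 22 in the list, were set beside the 10. Of the 17 that passed the low filter, 5 fell in Ad-Cre without inhibitor and 0 rose (limma), while 9.58% of all genes tested fell. These were Myt1 (log2 fold change -1.12), St18 (-1.05), Rfx6 (-0.87), Esrrg (-0.79) and Rfx3 (-0.64), with limma adjusted p from 0.0024 to 0.0191. Rfx6 is needed for endocrine cell formation and β cell function, and Esrrg is a nuclear receptor of mature β cell metabolism. The median log2 fold change of the 17 was -0.22, against -0.01 for all genes. With inhibitor the same 5 genes fell, against 10.5% of all genes, and 1 rose: Neurog3, the endocrine progenitor factor, with a log2 fold change of 0.56 (limma adjusted p = 0.0143) at low levels, 0.979 ± 0.269 and 1.75 ± 0.354 RPKM (SD, n = 4). With the block, 6 fell and 0 rose without inhibitor (18.7% of all genes fell), and 5 fell and 3 rose with it (12.1% of all genes fell). Among all 11598 genes tested with inhibitor, 1176 rose without the block and 1472 with it.

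Among 10 proteins that partner these factors, Tle3, a corepressor, fell by 0.77 on the log2 scale without inhibitor (limma adjusted p = 0.00394) and by 0.94 with it (limma adjusted p = 0.00326). Meis2 fell by 0.57 without inhibitor (limma adjusted p = 0.0237), and Kat2b fell by 0.45 with it (limma adjusted p = 0.0438). Thus 2 of the 10 were called in each comparison without the block, against 9.58% and 10.5% of all genes called lower, and none rose. With the block 4 fell without inhibitor (18.7% of all genes) and 1, Tle3, with it (12.1% of all genes), and Kat2b no longer passed with inhibitor (limma adjusted p = 0.0673). Ldb1, the cofactor of Isl1, had log2 fold changes of -0.02 and 0.07.

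Genes that these factors are known to control, 18 in the list, all had a lower mean log2 value in Ad-Cre without inhibitor, and 2 were called, a share near the 9.58% of all genes tested: Ucn3, a peptide of mature β cells, with a log2 fold change of -2.11 (limma adjusted p = 0.0401), and G6pc2, an islet glucose-6-phosphatase, with -1.96 (limma adjusted p = 0.00690). Their median was -0.58, against -0.01 for all genes. Slc2a2, the glucose transporter GLUT2, had -1.28 and missed the threshold (limma adjusted p = 0.0906). With inhibitor 4 of 18 fell, against 10.5% of all genes: G6pc2 (-2.33), Ucn3 (-2.19), Slc2a2 (-1.69) and Gjd2 (-1.41), with limma adjusted p from 0.00237 to 0.0177. With the block, 10 of 18 fell without inhibitor (18.7% of all genes), and 8 fell and 1 rose with it (12.1% of all genes fell, and 1472 of 11598 rose).

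Without inhibitor the insulin genes differed by less than the spread between preparations. Ins1 had 27794 ± 6504 RPKM in Ad-LacZ and 22282 ± 8189 RPKM in Ad-Cre (SD, n = 4), with a difference of -0.38 on the log2 scale (limma adjusted p = 0.573). Ins2 had 35446 ± 8182 and 33035 ± 13896 RPKM (SD, n = 4), with a difference of -0.18 (limma adjusted p = 0.816). With inhibitor Ins1 had -0.13 and Ins2 0.56, neither past the threshold without the block. Ins2 was the one target that rose with the block (limma adjusted p = 0.0274). Gcg and Sst, the hormones of α and δ cells, had log2 fold changes of 0.00181 and -0.04 without inhibitor and of 0.58 and 0.85 with it, none past the threshold without the block. With the block Sst rose in Ad-Cre + JNK inhibitor (limma adjusted p = 0.0320).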

How the data were processed

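RNA-seq was performed on 16 libraries of dispersed islet cells, 4 per group, assigned to groups by their labels. The authors aligned poly(A) paired-end reads to the mouse genome (build GRCm38 in the submitters' processing notes) and deposited RPKM values for 25105 genes; the step from counts to RPKM is not given in the sources used here. A further 3 columns that no label names were not used.

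A gene was tested when over 1 RPKM in 4 or more libraries of the comparison. Libraries were scaled with factors of the trimmed mean of M-values method (TMM; no weights, all listed genes, 30% of ratios and 5% of levels trimmed). The log2 of the scaled value plus a pseudocount of 1 then entered limma 3.58.1 under R 4.3.3 (functions lmFit and eBayes, trend on). A fold change on this scale understates that of low genes. Each comparison used its 8 libraries without a block, with the block as an alternative, and the interaction used all 16. Genes were called at a Benjamini-Hochberg adjusted p under 0.05 over all genes tested. Intervals are 95% intervals from the same fits. Where nothing shows that libraries came from separate animals beyond the preparation, p-values without the block measure the spread between preparations. With the block, p-values measure how differences between groups within a preparation vary among preparations. RPKM files give no read counts; depth was estimated from the steps of low values times exon length (GENCODE M21), with 60.7% to 93% of low values within 0.02 of a whole read.

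The form of the TMM factors was settled after values of the 10 factors had been seen. The first form tried took factors from genes above the filter, the order the study's methods give. It was then replaced, after other gene sets and reference libraries had been tried on Ad-Cre against Ad-LacZ, by the form whose values equalled those of an earlier analysis of these data, so that equality is no independent check. The first form, 4 others and each of the 8 possible reference libraries are given as alternatives added after seeing the data. Across them 5 factors were called without inhibitor and the adjusted p of Mafa was 0.0502 to 0.0665. With inhibitor the first form called 6 factors, the form kept 5.

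Preparation numbers pair libraries, since parallel cultures came from the same preparation. Residuals of libraries with the same number correlated at 0.486 to 0.721 (Ad-Cre against Ad-LacZ), 0.158 to 0.663 (the same with inhibitor), 0.646 to 0.821 (inhibitor in Ad-Cre) and 0.131 to 0.826 (inhibitor in Ad-LacZ).

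The 10 factors, the gene lists and the rule for named genes (the factors, Hspa5, selected or called list genes, and for each factor the 3 genes with the highest r) were chosen with earlier results of these data known. For single genes an exact permutation test (two-sided) was run as well. On simulated data for Ad-Cre against Ad-LacZ (11452 genes), 67% of 100 genes changed by 1 and 99% of 100 changed by 2 on the log2 scale were recovered. The changed genes were drawn from those with a mean above about 10 RPKM. Noise was independent for each library, without a preparation effect. Recovery of lower genes and in paired libraries was therefore not measured. Alternatives: pseudocount 0.1, no filter, unscaled RPKM, quantile normalization, all 16 libraries fitted together, a block for preparation, limma with the trend off, and leaving out each replicate. Protein sequences and genome sequence were not used here. Promoters were read with Python 3.11.15 and plots drawn with matplotlib 3.10.9.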

Additional observations from a re-analysis of the deposited data

Results flagged for a closer look

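Of 40 sets of 4 libraries (10 factors in 4 groups), 2 held a library whose gap to its nearest neighbour exceeded Dixon's 95% critical value as a share of the range; chance marks about 1 set in 20. Isl1 in Ad-Cre + JNK inhibitor was 21.0 RPKM in M2, with a gap of 0.932 of the range. Foxa2 in Ad-LacZ + JNK inhibitor was 38.2 RPKM in M1, with a gap of 0.881 of the range.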

How the results depend on the processing

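The direction of all 10 factors in both comparisons of Ad-Cre with Ad-LacZ was lower under every alternative run, and Neurod1 was called in each of them. The number called moved. For Ad-Cre against Ad-LacZ (5 called) it was 8 after quantile normalization and 10 with a block for preparation, and 1 to 4 when a replicate was left out (3 without F1 or M1, 4 without M2, 1 without F2). With inhibitor (5 called) it was 9 on RPKM as deposited, 9 after quantile normalization and 10 with the block, and 1 to 5 when a replicate or library was left out (3 without F1, 1 without M1, 5 without M2, 1 without F2, and 2 without the F2 library of Ad-Cre + JNK inhibitor alone, an alternative chosen after seeing the data). Leaving out a replicate leaves 3 libraries a group, and the filter then asked for 3 libraries. The TMM forms added after seeing the data called 5 without inhibitor and 5 or 6 with it, the sixth being Insm1. The block called 3990 genes in place of 1955 without inhibitor. RPKM as deposited moved the median of all genes to -0.14 with inhibitor for the Ad-Cre comparison, and the changes of the factors there are to be read against it.

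In the inhibitor comparisons and the interaction 0 factors were called under any alternative, and the block changed no call there; signs near 0 turned. For the inhibitor in Ad-Cre, RPKM as deposited gave a median of -0.18 for the 10 factors (median of all genes -0.14), Neurod1 -0.045 and Foxa2 -0.13; quantile normalization gave Neurod1 -0.041, Insm1 -0.029 and Foxa2 -0.040. With a replicate left out, Nkx2-2 ranged from -0.15 to 0.011, Neurod1 from -0.11 to 0.22, Pax6 from -0.055 to 0.25 and Foxa2 from -0.044 to 0.098. For the inhibitor in Ad-LacZ, Pax6 ranged from -0.093 to 0.15 and Foxa2 from -0.083 to 0.013.

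The interaction on RPKM as deposited was -0.026 for Pax6, -0.15 for Insm1 and -0.086 for Foxa2, and that of Insm1 was -0.14 after quantile normalization, -0.016 with TMM factors from genes above the filter and -0.012 from genes above 0. With replicates or that library left out, the interaction ranged from -0.13 to 0.14 for Mafa, -0.15 to 0.095 for Pdx1, -0.15 to 0.039 for Nkx6-1, -0.51 to 0.064 for Neurod1, -0.11 to 0.37 for Pax6, -0.18 to 0.12 for Insm1 and -0.034 to 0.16 for Foxa2. The cause of these shifts was not tested. The lowest estimated depth was 7.7 M reads, and its effect on these values was not tested.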
